A study of Mus musculus with 2 samples.

Results

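Ibsp-positive cells with little osteocalcin were examined in single-cell suspensions of mouse mandibular first molars and their surrounding tissues. They were 1251 of the 17780 cells kept from 2 libraries, with 587 of 8886 in Lipo-Clo and 664 of 8894 in Lipo-PBS. A cell was selected when it had at least 5 unique molecular identifiers (UMIs, each marking 1 captured transcript) of Ibsp, fewer than 10 of Bglap plus Bglap2, fewer than 10 of Dspp, and at least 2% of its UMIs from Col1a1. The cells were thus selected on measured transcripts, and the levels of these 5 genes describe the choice of cells and are not findings. The libraries come from C57BL/6J mice at PN15.5. Lipo-Clo mice had been given clodronate liposomes, which deplete macrophages, in 4 intraperitoneal injections of 40 μg per g of body weight, 1 every 3 days from PN3.5, and Lipo-PBS mice had been given the same volume of vehicle liposomes on the same days. Each condition is 1 library, the number of mice behind it is not given in the sources used here, and no difference between the conditions could be tested. Intervals below are 95% and cover counting error only.

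Ibsp encodes bone sialoprotein, an acidic protein of mineralized matrix that is made by osteoblasts and is abundant in cementum, the mineralized layer that anchors periodontal ligament fibres to the tooth root. Bglap and Bglap2 encode osteocalcin, a vitamin K-dependent protein of late, mineralizing osteoblasts, and Dspp encodes the precursor of the main non-collagenous proteins of dentin, made by odontoblasts. Along the osteoblast lineage, collagen I and bone sialoprotein come before osteocalcin, and cementoblasts form from dental follicle cells at the root surface. No single transcript separates cementoblasts from osteoblasts, so the cells are called here by the genes that selected them.

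The bases just before the starts of Ibsp and Bglap are shown because these genes define the cells. Each run is the 250 bases before the annotated start, read 5′ to 3′ on the gene's strand from the RefSeq promoter table of build GRCm38.p6. Capitals mark TGTGGT or its complement ACCACA, the core that RUNX factors such as RUNX2 recognize. Ibsp (ENSMUSG00000029306) lies at chr5:104299037-104299286 on the plus strand and Bglap (ENSMUSG00000074483) at chr3:88384467-88384716 on the minus strand. These letters occur in 14.0% of the 32817 windows of this length in the table, once in the Bglap window and not in the Ibsp window. A match of letters is a description of the window and not evidence of binding.

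Ibsp: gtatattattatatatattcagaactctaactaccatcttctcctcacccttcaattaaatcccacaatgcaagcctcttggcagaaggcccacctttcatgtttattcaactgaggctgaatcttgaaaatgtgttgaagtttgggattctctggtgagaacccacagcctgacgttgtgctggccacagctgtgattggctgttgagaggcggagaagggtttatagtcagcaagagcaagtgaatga

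Bglap: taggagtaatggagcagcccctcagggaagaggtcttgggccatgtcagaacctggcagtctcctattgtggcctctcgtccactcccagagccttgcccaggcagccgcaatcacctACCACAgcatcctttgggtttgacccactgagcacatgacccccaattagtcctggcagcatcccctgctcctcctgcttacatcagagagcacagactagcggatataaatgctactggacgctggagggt

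The selected cells were deeper than kept cells as a whole. Their median was 3476 UMIs in Lipo-Clo and 3632.5 in Lipo-PBS, against 2672.5 and 2754.5 over all kept cells. Ibsp ran from 5 to 545 UMIs a cell with a median of 28 in Lipo-Clo, and from 5 to 527 with a median of 19 in Lipo-PBS. The ranges were nearly the same, but cells with 30 to 99 Ibsp UMIs made up 38.5% of the Lipo-Clo cells and 25.9% of the Lipo-PBS cells. No osteocalcin UMI was seen in 57.4% of the Lipo-Clo cells and 44.1% of the Lipo-PBS cells. Osteocalcin in some cells not known to make it moved the same way, with a UMI in 12.9% of Lipo-Clo and 28.1% of Lipo-PBS B cells. The shares were 16.3% and 38.6% in neutrophils and 9.79% and 34.8% in endothelial cells. Epithelial cells went the other way, at 48.5% and 41.1%. The part of such osteocalcin in the difference was not tested. Summed over cells, Ibsp was at 10413 UMIs per 1000000 UMIs of the set (CPM) in Lipo-Clo and 9383 in Lipo-PBS. The rule cuts a continuous range: in Lipo-PBS, cells just inside the Ibsp limit (5 or 6 UMIs) numbered 78 and those just outside it (3 or 4 UMIs) 115, and cells just inside the osteocalcin limit (7 to 9 UMIs) numbered 49 and those just outside (10 to 12 UMIs) 38. The corresponding Lipo-Clo numbers were 50, 94, 32 and 24.

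**Figure D1:**
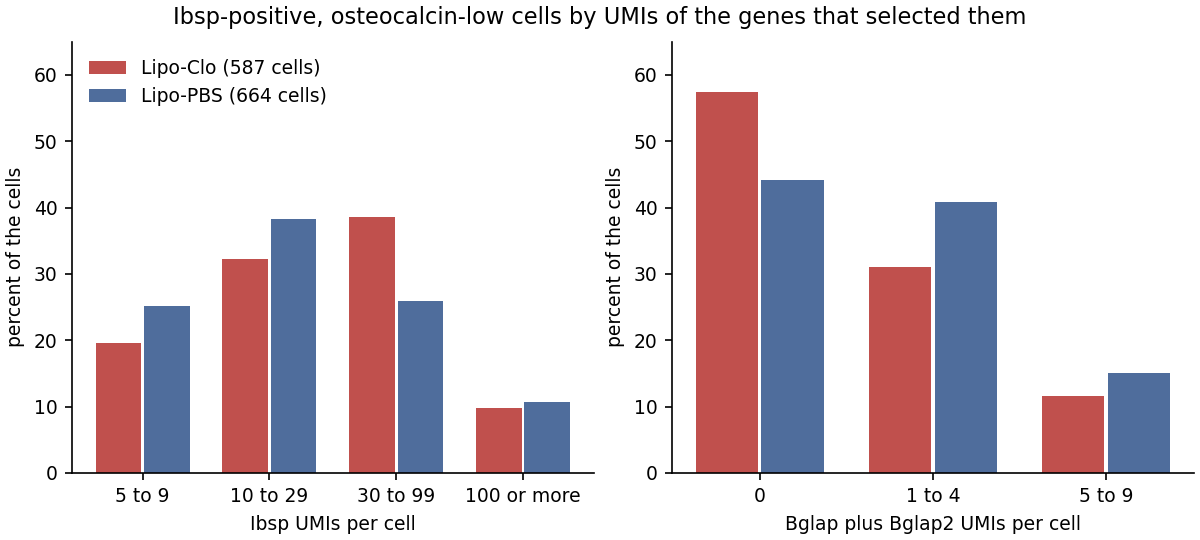
Percent of the Ibsp-positive, osteocalcin-low cells of each library (bars, 587 Lipo-Clo and 664 Lipo-PBS cells) by their UMIs of Ibsp (left) and of Bglap plus Bglap2 (right). The largest Ibsp class was 30 to 99 UMIs in Lipo-Clo and 10 to 29 in Lipo-PBS. More Lipo-Clo cells had no osteocalcin UMI. The share with such a UMI was lower in Lipo-Clo for B cells (12.9% against 28.1%), neutrophils and endothelial cells. It was higher there for epithelial cells (48.5% against 41.1%).

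Ibsp transcripts were also found at low levels in cells not known to make them. Among B cells (at least 5 UMIs of Cd79a plus Cd79b), 3 of 248 Lipo-Clo and 3 of 121 Lipo-PBS cells reached 5 Ibsp UMIs, at median depths of 1701.5 and 1755 UMIs. Among endothelial cells, 2.80% did so in Lipo-Clo and 12.6% in Lipo-PBS, at median depths of 1627 and 2358.5 UMIs. The Ibsp level of B cells was 547 CPM in Lipo-Clo and 592 in Lipo-PBS, far below that of the selected cells in the same libraries. The requirement for 2% Col1a1 removed 248 of the 1019 Lipo-Clo and 386 of the 1268 Lipo-PBS cells with 5 Ibsp UMIs or more. A further 184 and 218 cells were removed for their osteocalcin, and the Dspp limit removed none of those left.

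The cells made up 6.61% of kept cells in Lipo-Clo (interval 6.10% to 7.14%) and 7.47% in Lipo-PBS (6.93% to 8.03%), giving a log2 ratio of -0.18 (-0.34 to -0.01). Of Col1a1-high cells they were 19.5% and 20.7%, a log2 ratio of -0.09 (-0.25 to 0.08), and of Ibsp-positive cells 57.6% and 52.4%, a log2 ratio of 0.14 (-0.03 to 0.30). Whether the share was higher or lower thus changed with the denominator. It also changed when 3 clusters led by genes of other cell types, described below, were left out after seeing the data: the cells were then 5.93% of kept Lipo-Clo and 5.19% of kept Lipo-PBS cells, with a log2 ratio of 0.19 (0.01 to 0.37). Cells of the same Col1a1-high population with at least 10 osteocalcin UMIs and fewer than 10 of Dspp (osteocalcin-high cells) were 244 in Lipo-Clo and 316 in Lipo-PBS, 2.75% and 3.55% of kept cells.

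To see what separates the cells from neighbours with more osteocalcin or without Ibsp, they were set beside the osteocalcin-high cells and beside 1700 Lipo-Clo and 1693 Lipo-PBS Col1a1-high cells with no Ibsp UMI and under the same osteocalcin and Dspp limits (Ibsp-negative cells). All 3 sets were cut from the same cells by related genes, so the values are descriptions, and mineral formation was not measured. The sets also differed in depth, and the UMI limits are raw counts. Median UMIs were 4258 and 4408.5 in osteocalcin-high and 3381.5 and 3104 in Ibsp-negative cells, against 3476 and 3632.5 in the selected cells. Genes were counted when they differed at least 2-fold the same way in both libraries. Against osteocalcin-high cells, 50 of 6380 genes were higher (0.784%) and 91 lower (1.43%), and against Ibsp-negative cells 72 of 5565 were higher (1.29%) and 67 lower (1.2%). A gene counted as in use when it was in at least 10% of the cells of a set, so a gene that reached this only in the set where it was high had to differ. That held for 19 of the 50 and 64 of the 91, and for 47 of the 72 and 24 of the 67. Counts are therefore also given for genes whose share of cells, averaged over the sets compared, reached 10%, an alternative chosen after seeing the data. By this mean share, 36 of 5443 genes were higher (0.661%) and 51 lower (0.937%) than in osteocalcin-high cells, and 49 of 4808 higher (1.02%) and 48 lower (0.998%) than in Ibsp-negative cells.

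Relative to osteocalcin-high cells, the selected cells had lower levels of several mineralized-matrix genes. Of 19 listed mineralized-matrix genes in use, 8 were at least 2-fold lower and none was higher, and by the mean share 7 of 18 were lower and none higher. Dmp1, Enpp1 and Phex among the 8 reached 10% of cells only in the osteocalcin-high set. Of 9 osteocyte genes 4 were lower (Ank, Dmp1, Phex and Irx5), all but Ank in 10% of cells only in that set, and by the mean share 2 of 7. Spp1, which encodes the matrix protein osteopontin, was at 447 CPM in Lipo-Clo and 485 in Lipo-PBS, against 3023 and 2529 in osteocalcin-high cells. Dmp1, a matrix phosphoprotein gene of osteocytes and odontoblasts, was at 73.8 and 46.0 against 586 and 365. Phex, an endopeptidase gene of phosphate regulation, was at 5.84 and 4.71 against 70.1 and 75.4. Each of these was lower in both libraries, with log2 ratios of -2.76 and -2.38 for Spp1, -2.99 and -2.99 for Dmp1, and -3.59 and -4.00 for Phex. Ifitm5, a membrane protein gene of mineralizing osteoblasts, Ank, a pyrophosphate exporter gene, Enpp1, which makes extracellular pyrophosphate, Smpd3, a sphingomyelinase gene needed for mineralization, and Col11a2 were the other members of that group. Outside the list, Coch (-4.53 and -4.41) and the transcription factor gene Irx5 (-3.81 and -3.60) were also lower in both libraries. Crtac1, Gchfr, Pla2g5 and Dtna were the remaining named genes that were lower. Of the 10 named genes on this side, 7 (Coch, Irx5, Phex, Dmp1, Crtac1, Pla2g5 and Dtna) reached 10% of cells only in the osteocalcin-high set and so had to be lower. Of 9 odontoblast genes 7 were lower and none higher, 5 of the 7 in 10% of cells only in that set. By the mean share 5 of 6 were lower. A Dspp UMI was seen in 20.1% and 13.6% of osteocalcin-high cells, against 1.53% and 2.56% of selected cells. The part of odontoblast transcripts in this contrast was not tested.

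Some dental follicle and ligament genes were higher than in osteocalcin-high cells, in large part through one subset, cluster 3 of the clusters described below. Moxd1 was at 369 CPM in Lipo-Clo and 265 in Lipo-PBS against 54.6 and 38.4, log2 ratios of 2.76 and 2.79. Grem1, a secreted BMP antagonist, was at 64.2 and 56.8, log2 ratios of 2.36 and 1.74. Its level was 180 and 185 in cluster 3 but 3.83 and 5.28 in cluster 1 and 2.07 and 4.11 in cluster 2, below osteocalcin-high cells of the same library. Of 8 dental follicle genes in use, 3 were at least 2-fold higher (Moxd1, Dio2 and Grem1) and none lower. Grem1 reached 10% of cells only in the selected set, and by the mean share 2 of 7 were higher. Of 17 periodontal ligament genes 4 were higher (Tnn, Tnmd, Htra1 and Itgbl1) and none lower, and by the mean share 4 of 15. The other named genes on this side were Col7a1, which encodes anchoring-fibril collagen, Cyp26b1, a retinoic acid-degrading enzyme gene, Itga8, Ephb1, Tnfrsf21, Tox and Slitrk6. Of the 10 named genes on this side 6 reached 10% of cells only in the selected set, and Moxd1, Cyp26b1, Col7a1 and Itgbl1 did so in both sets. Of clusters 1, 2 and 3, all 10, Moxd1, Grem1 and Itgbl1 included, were highest in cluster 3 in both libraries. Without cluster 3, 2 of the 10 (Moxd1 and Tox) were still at least 2-fold higher, and Itgbl1 (-1.04 and 0.48) and Grem1 (-0.19 and -0.03) were not higher in both libraries. Outside that cluster Dio2 (-3.42 and -0.22) and Htra1 (-0.24 and 0.30) were not higher in both either, while Tnn (0.99 and 0.93) and Tnmd (0.60 and 0.85) were. The list medians were 1.61 and 0.90 for the dental follicle and 1.12 and 0.59 for the ligament, against 0.08 and 0.06 over all genes in use.

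Relative to Ibsp-negative cells, several matrix genes were higher in the selected cells. Spp1 was at 50.9 and 23.1 CPM in Ibsp-negative cells, log2 ratios of 3.14 and 4.39. These Spp1 sums rested on few cells: 17.5% of the selected Lipo-Clo cells and 18.1% of the Lipo-PBS cells had any, with up to 329 and 192 UMIs in one cell. Spp1 also reached similar sums in some cells not known to make it. B cells were at 1360 CPM in Lipo-Clo, where 1 cell held 1042 of 1066 UMIs, and had 4 UMIs in Lipo-PBS. Endothelial cells were at 10.9 and 479, with up to 151 UMIs in one Lipo-PBS cell, and 7.26% of the Lipo-Clo B cells and 8.59% of the Lipo-PBS endothelial cells had any. The Spp1 level is therefore not read as that of the selected cells alone. Smpd3 was at 295 and 278 against 35.0 and 28.0 in Ibsp-negative cells. Of cells not known to make it, B cells held Smpd3 at 2.55 and 18.8 CPM, neutrophils at 17.4 and 36.6, endothelial cells at 27.3 and 33.8 and epithelial cells at 18.1 and 33.9, so the level of Ibsp-negative cells in Lipo-PBS was within this background. Col11a2 was at 204 and 125 against 18.7 and 14.8. Of 15 matrix genes in use 5 were at least 2-fold higher (Spp1, Smpd3, Ank, Ifitm5 and Col11a2), and Mgp, an inhibitor of calcification, was the 1 that was lower. Alpl, the alkaline phosphatase gene, was lower than in Ibsp-negative cells, though by less than 2-fold, with log2 ratios of -0.83 and -0.27. All of the 5 but Ank reached 10% of cells only in the selected set, and by the mean share 4 of 14 were higher and 1 lower. Without cluster 1 of the clusters described below, Ank (0.69 and 1.16) and Ifitm5 (0.95 and 0.82) were not 2-fold higher in both libraries. Spp1, Smpd3 and Col11a2 still were. Among osteoblast transcription factors Tcf7, Lef1 and Mef2c were higher and Nfib was lower, out of 18 in use and also out of 17 by the mean share. Tcf7 and Lef1 reached 10% only in the selected set.

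Some signalling genes also differed from Ibsp-negative cells. Wnt7b, a Wnt ligand, was at 43.0 and 36.6 CPM against 4.83 and 2.47. Notum, a secreted enzyme that inactivates Wnt ligands, and the Wnt-responsive transcription factors Tcf7 and Lef1 were higher with it, so that 4 of 19 Wnt genes were at least 2-fold higher and 1, Sfrp2, lower. These 4 reached 10% of cells only in the selected set, and by the mean share 3 of 17 were higher and 1 lower. Bmp2 and Bmp7 were higher among 18 BMP genes, and Gdf10 was lower, each in 10% of cells only where it was high, and by the mean share 2 of 17 were higher and none lower. Of 10 cementoblast candidate genes, Pthlh, the parathyroid hormone-related peptide, Sparcl1 and the neuronal tubulin Tubb3 were higher than in Ibsp-negative cells, none was higher than in osteocalcin-high cells, and Tubb3 was lower than in those. Of these 3, Tubb3 reached 10% of cells only in the selected set, and by the mean share the counts were the same. Nudt17, Fstl4, Unc5d, Serpini1 and the neuronal microtubule gene Stmn2 were the remaining named genes that were higher. Of clusters 1, 2 and 3, 9 of the 10 named genes on this side were highest in cluster 1 in both libraries. Without that cluster all 10 were still at least 2-fold higher, but all 10 had reached 10% of cells only in the selected set. Spp1 in cluster 2 (24.9 and 2.05 CPM) was below Ibsp-negative cells. In cluster 3 Smpd3 (37.0 and 10.6), Col11a2 (23.8 and 10.6) and Tubb3 (15.9 and 10.6) were not above them in both libraries. Nudt17, Wnt7b, Fstl4, Stmn2, Unc5d and Serpini1 were above them in both clusters and libraries.

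Several fibroblast genes were lower in the same comparison. Of 12 in use, 8 were at least 2-fold lower than in Ibsp-negative cells and none was higher, including Mfap5, Clec3b, Cd34 and Dcn. Clec3b and Gdf10 reached 10% of cells only in the Ibsp-negative set, and by the mean share 6 of 10 were lower. Of 17 periodontal ligament genes 5 were lower, among them Aspn and Col14a1, and none was higher, and without Fmod, in 10% of cells only in the Ibsp-negative set, 4 of 16 were lower by the mean share. The small leucine-rich proteoglycan gene Ogn was at 118 CPM in Lipo-Clo and 167 in Lipo-PBS against 545 and 661. Prelp, Abi3bp, Fndc1, Matn4, Entpd3, Bnc2 and Ecrg4 completed the named genes that were lower, and of the 10 on this side Clec3b, Prelp, Entpd3 and Ecrg4 reached 10% of cells only in the Ibsp-negative set.

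**Figure D2:**
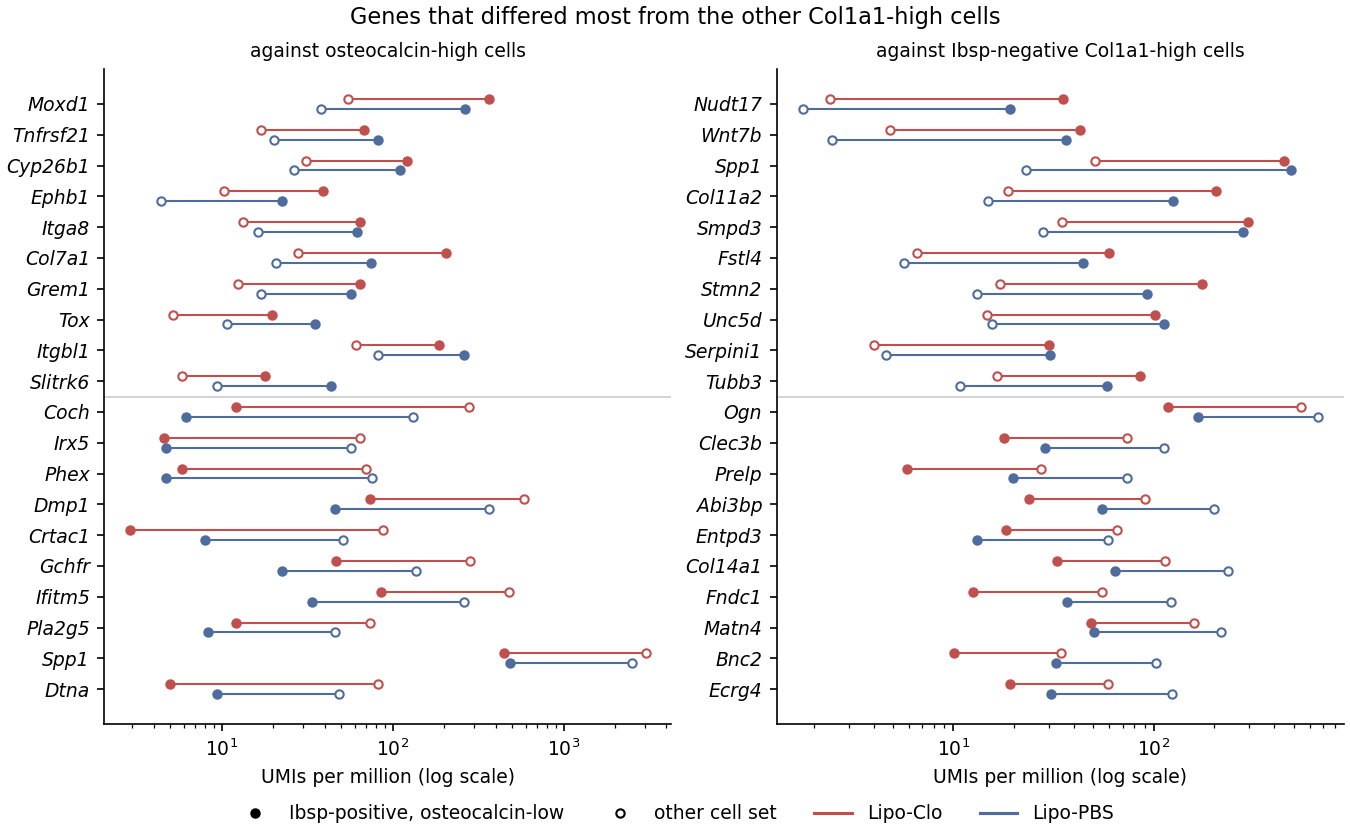
Level (CPM, log axis) of the 10 named genes in each direction in the Ibsp-positive, osteocalcin-low cells (filled points) and in the other cell set (open points), for each library by colour. In both panels the upper 10 genes were higher and the lower 10 lower than in the other set in both libraries.

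The cells were not uniform. Clustering of the 1251 cells gave 7 clusters, whose defining genes are descriptions of that grouping. Cluster 1 (179 Lipo-Clo and 119 Lipo-PBS cells) was led by Ifitm5, Smpd3, Col11a2 and Ank and held 7 of 11 osteoblast-lineage markers and 3 of 5 cementoblast candidates, and is called osteoblast lineage-like. Bglap and Bglap2 among the 7 are genes of the selection rule, and of the other 5 Smpd3, Dmp1 and Ifitm5 were highest in this cluster in both libraries, so the name rests on these 3. In Lipo-PBS Spp1 was at 483 CPM here, against 887 in cluster 4 and 1251 in cluster 5, and Sp7 at 119, against 138 in cluster 2. The cementoblast candidates marked were Pthlh, Wif1 and Tubb3, and the name does not set osteoblasts apart from cementoblasts. Its Ibsp level was the highest of clusters 1 to 5 in both libraries, at 20314 and 23808 CPM. Cluster 2 (152 and 144 cells) was led by Thbs4, Pappa2, Pde7b and Enpp2 and had no list with 3 markers, so it stayed unnamed. It had Runx2 at 1029 and 1283 CPM and almost no Dmp1, at 2.07 and 2.05. Cluster 3 (149 and 142 cells) was led by Dio2, Grem1, Col7a1 and Tnfrsf21, held 4 of 5 dental follicle markers and is called dental follicle-like. The marker not held, Pthlh, was at 423 and 375 CPM, against 686 and 480 in cluster 1. Of 7 periodontal ligament markers 2, Postn and Tnmd, were also marked, and the name does not set follicle apart from ligament cells. The Postn level of cluster 3 was 3671 and 3881 CPM, against 347 and 897 in cluster 1. Cluster 5 (47 and 57 cells) was led by histone genes and Ube2c and held 5 of 5 cycling markers. It also held 3 of 7 periodontal ligament markers and 2 of 4 osteoclast markers, Ctsk and Mmp9.

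The 3 remaining clusters were led by genes of other cell types. Cluster 4 (37 Lipo-Clo and 162 Lipo-PBS cells) was led by the ameloblast genes Odam and Ambn with Clu and the epithelial keratin gene Krt14, and also held 4 of 4 perivascular and 5 of 6 fibroblast markers. Cluster 6 (15 and 24 cells) was led by the neutrophil genes S100a8 and S100a9, with 4 of 4 endothelial markers also marked, and cluster 7 (8 and 16 cells) by macrophage genes such as Ccl4 and C1qc. Scores for doublets, droplets with more than 1 cell, picked out 21.1%, 25.6% and 25% of clusters 4, 6 and 7, against 4.03%, 5.74% and 5.50% of clusters 1, 2 and 3 and 14.4% of cluster 5. Because Ifitm5 and Col7a1, which lead clusters 1 and 3, differed between the libraries, cluster sizes are given as counts and not compared.

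**Figure D3:**
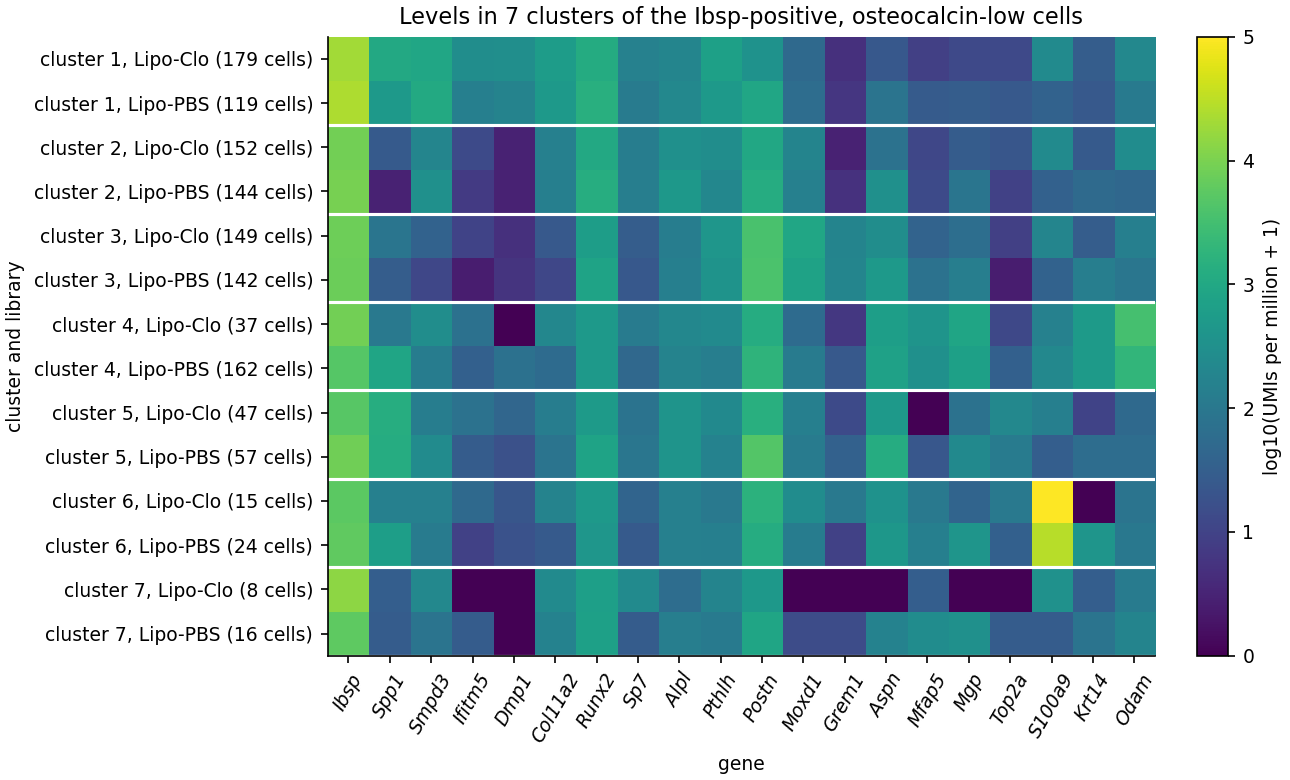
Level of 20 genes (colour, log10 of CPM plus 1) in the 7 clusters of the cells, with 1 row per cluster and library. Smpd3, Ifitm5 and Col11a2 were highest in cluster 1, Moxd1 and Grem1 in cluster 3, Odam and Mfap5 in cluster 4, and S100a9 in cluster 6.

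Between the libraries, 148 of 5444 genes in use were at least 1.5-fold higher in Lipo-Clo (2.72%) and 325 at least 1.5-fold lower (5.97%), while 52.7% were higher and 47.3% lower by any amount. Of these, 74 of the 148 and 164 of the 325 reached 10% of cells only in the library where they were higher. By the mean share of cells 115 of 5074 genes were higher (2.27%) and 233 lower (4.59%). The median log2 ratio (Lipo-Clo over Lipo-PBS) was 0.02. With TMM scaling the numbers were 190 and 269, so that 41.4% of these genes were higher in place of 31.3%, and with totals that leave out mitochondrial, globin, ribosomal and selection-rule genes they were 113 and 371, or 23.3% higher. At 2-fold, 14 genes were higher and 81 lower. Without the clusters 4, 6 and 7 the numbers were 198 and 426, of which 107 and 236 were among the 148 and 325.

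The RNA of other cell types moved with these differences. The 9 neutrophil genes summed to 8971 CPM in the selected Lipo-Clo cells and 2407 in the Lipo-PBS ones, with S100a9 the most abundant. Few cells carried these sums: the 15 Lipo-Clo and 24 Lipo-PBS cells of cluster 6 held 4837 of 5023 and 1243 of 1297 S100a8 UMIs, and 10622 of 11092 and 3411 of 3628 S100a9 UMIs. In clusters 1, 2 and 3 S100a9 was at 243, 243 and 184 CPM in Lipo-Clo and 36.9, 34.9 and 36.4 in Lipo-PBS. Any of them was seen in 80.6% and 35.5% of the cells, and over all kept cells their level was 30354 and 6545. Globin genes took 1.72% of UMIs in Lipo-Clo and 4.79% in Lipo-PBS, and the 13 mitochondrial genes 0.409% and 1.79%. Epithelial genes summed to 135 and 424 CPM (Krt14 most abundant), endothelial genes to 53.0 and 135 (Egfl7), macrophage genes to 421 and 371 (Fcer1g in Lipo-Clo and Tyrobp in Lipo-PBS) and osteoclast genes to 564 and 366 (Ctsk). Over all kept cells the macrophage genes were at 1561 CPM in Lipo-Clo and 883 in Lipo-PBS. In the selected cells ameloblast genes summed to 630 and 753 (Odam), perivascular genes to 462 and 588 (Acta2) and B cell genes to 291 and 463 (Ebf1). Glial genes summed to 30.0 and 74.2, chondrocyte genes to 75.9 and 64.8 (Col9a2) and T or NK cell genes to 11.7 and 17.0 (Cd3g). No gene of the neutrophil, macrophage, B cell, epithelial, endothelial, glial or perivascular lists was at 0 in either library, while 2 of 6 osteoclast genes were at 0 in Lipo-PBS, and 1 of 6 T or NK cell genes and 1 of 7 ameloblast genes in each library, and 1 of 8 chondrocyte genes in Lipo-Clo and 3 in Lipo-PBS. The part that these transcripts have in the differences below was not tested, and values are also given without the 103 Lipo-Clo and 149 Lipo-PBS cells that held at least 5 UMIs of the neutrophil, macrophage, epithelial, ameloblast, endothelial, glial or T or NK cell genes.

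The 4 named genes with the highest ratios were neutrophil genes, most of whose UMIs lay in cluster 6. S100a8 was at 2095 CPM in Lipo-Clo and 470 in Lipo-PBS, with a log2 ratio of 2.16 (2.07 to 2.25). Ngp had a log2 ratio of 2.22, Camp 1.94 and S100a9 1.82. Without the cells holding genes of other types these were 2.42 for S100a8, 2.18 for Ngp, 1.60 for Camp and 2.28 for S100a9. Thinning each cell to 3000 UMIs and applying the rule again brought S100a8 to 0.40, Ngp to 0.23, S100a9 to 0.14 and Camp to -0.0077.

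Matrix and mineralization genes divided. Ifitm5 was at 85.1 CPM in Lipo-Clo and 33.7 in Lipo-PBS, with a log2 ratio of 1.34 (0.98 to 1.71), and was seen in 15.7% and 9.79% of cells. Within cluster 1 it had 148 and 53 UMIs, a log2 ratio of 1.02 (0.56 to 1.5), while clusters 2 and 3 held 6 and 7 UMIs in Lipo-Clo and 3 and 1 in Lipo-PBS, too few to compare. It was 0.87 in osteocalcin-high cells. Col11a2, a fibrillar collagen chain, was at 204 and 125, a log2 ratio of 0.71 (0.51 to 0.91), and 0.40 without clusters 4, 6 and 7. Within clusters it was closer between the libraries, at 567 and 485 CPM in cluster 1 and 147 and 146 in cluster 2. In cluster 3 it was low, at 23.8 and 10.6. The part of the mix of clusters in its ratio was not tested. Mgp was at 105 and 277, a log2 ratio of -1.40 (-1.61 to -1.19), and -0.82 without the cells holding genes of other types. Cluster 4, with 37 Lipo-Clo and 162 Lipo-PBS cells, held 61.9% and 60.6% of its UMIs. There it was at 854 and 682 CPM, with a log2 ratio of 0.32 (0.05 to 0.59), and over the other clusters it was -1.74 (-2.09 to -1.41). Mgp was also lower in Lipo-Clo in osteocalcin-high cells, at 44.3 and 253 CPM, and in Ibsp-negative cells, at 273 and 684. Ifitm5, Col11a2 and Mgp were the only ones past 1.5-fold among 15 matrix genes in use, beside 2.72% of all genes higher and 5.97% lower. The median of the 15 was -0.02. Spp1 had a log2 ratio of -0.12, Alpl -0.17, Smpd3 0.08 and Omd -0.46. Spp1 was 0.40 without the cells holding genes of other types, so its direction depended on the cells counted. Dmp1, seen in 6.64% and 6.78% of the cells and so not in use, had a log2 ratio of 0.68 (0.35 to 1.02), which turned to -0.73 with an osteocalcin limit of 5.

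The osteoblast transcription factors were close between the libraries apart from 4. Runx2, which commits cells to the lineage, was at 797 CPM in Lipo-Clo and 880 in Lipo-PBS, with a log2 ratio of -0.14 (-0.23 to -0.06). Sp7, which acts after it, was at 94.7 and 71.7, a log2 ratio of 0.40 (0.12 to 0.68). Tcf7 was past 1.5-fold higher (0.62) and Nfib (-1.58), Nfia (-1.17) and Runx1 (-0.93) past 1.5-fold lower, out of 17 with a median of 0.05, beside 2.72% of all genes higher and 5.97% lower. Nfib, in 10% of cells only in Lipo-PBS, was at 25.4 and 76.0 CPM, and was also lower in osteocalcin-high cells (-1.24) and Ibsp-negative cells (-1.16). Among early osteoprogenitor genes Mmp13, a collagenase gene, had a log2 ratio of -1.17, Sfrp2, a secreted Wnt modulator, -0.63 and Prrx1 -0.38. The 14 genes of that list had a median of -0.07, with 1 past 1.5-fold higher and 3 lower, beside the same shares of all genes, and of the 3 Mmp13 reached 10% of cells only in Lipo-PBS.

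Several periodontal ligament genes were lower in Lipo-Clo. Of 16 in use, 6 were past 1.5-fold lower, beside 5.97% of all genes, and 1 higher, and 12 were lower by any amount, beside 47.3% of all genes. The median log2 ratio was -0.45. Col14a1 reached 10% of cells only in Lipo-PBS, and by the mean share 5 of 15 were lower and 1 higher, with a median of -0.41. Aspn, which encodes asporin, was at 238 CPM in Lipo-Clo and 551 in Lipo-PBS and was seen in 21.1% and 48.8% of cells, a log2 ratio of -1.21 (-1.35 to -1.07). Col12a1, a fibril-associated collagen, was at 1437 and 2475, a log2 ratio of -0.78 (-0.84 to -0.73), and Postn, which encodes periostin, was at 1789 and 2382, a log2 ratio of -0.41 (-0.47 to -0.36). Edil3 (-1.02), Col14a1 (-0.96), Mkx (-0.78) and Tnn (-0.64) were the others past 1.5-fold lower. Igfbp5, an IGF-binding protein gene, went the other way at 1465 and 883 CPM, with a log2 ratio of 0.73 (0.66 to 0.81). Tnmd, a ligament and tendon gene, had a log2 ratio of 0.06.

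The list median stayed below 0 when cells were left out and in the other cell sets, but not in every cluster. The median was -0.41 without the cells holding genes of other types and -0.54 without clusters 4, 6 and 7. Within clusters 1, 2 and 3, Aspn was -1.88 (from 12 and 32 UMIs), -2.09 and -0.78, and Col12a1 -0.77, -0.55 and -1.34. Other members differed from cluster to cluster: Postn was -1.37, -0.37 and -0.08, and Tnn -2.05, 0.04 and -0.47. Over the ligament genes with at least 20 UMIs in a cluster, 9 of 12 were lower in cluster 1, 7 of 14 in cluster 2 and 13 of 16 in cluster 3, with medians of -0.36, 0.0006 and -0.47. Over the same 16 genes the median was -0.48 in osteocalcin-high cells and -0.31 in Ibsp-negative cells. Aspn was -0.81 in osteocalcin-high cells and -0.83 in Ibsp-negative cells, and Col12a1 -0.47 and -0.78.

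Dental follicle, cementoblast candidate and fibroblast genes gave shorter lists, to be read beside 2.72% of all genes past 1.5-fold higher and 5.97% lower. Pthlh was at 395 CPM in Lipo-Clo and 254 in Lipo-PBS and was seen in 63.2% and 46.4% of cells, a log2 ratio of 0.63 (0.49 to 0.78). It was 0.51, 0.46 and 0.17 within clusters 1, 2 and 3, the last with an interval of -0.07 to 0.42. Dio2, the thyroid hormone-activating deiodinase gene, was at 108 and 277, a log2 ratio of -1.36 (-1.57 to -1.15), and Moxd1 had 0.48. Of 7 dental follicle genes in use 1 was past 1.5-fold higher and 2 lower, with a median of 0.18. Dio2 reached 10% of cells only in Lipo-PBS. The list median was 0.13 without the cells holding genes of other types but -0.10 without clusters 4, 6 and 7. Over the same 7 genes it was -0.44 in osteocalcin-high cells and -0.15 in Ibsp-negative cells. Of 10 cementoblast candidates 1 was past 1.5-fold higher (Pthlh) and 1 lower (Cemip, -0.74), with a median of 0.05. Of 10 fibroblast genes 3 were lower and none higher, with a median of -0.30. This median was -0.18 without the cells holding genes of other types and -0.16 without clusters 4, 6 and 7. Cd34 and Mfap5 reached 10% of cells only in Lipo-PBS, and by the mean share 2 of 9 were lower, with a median of -0.28. Mfap5, a microfibril protein gene, was at 49.6 and 121 CPM, with a log2 ratio of -1.28 (-1.60 to -0.98). Cluster 4, with 37 Lipo-Clo and 162 Lipo-PBS cells, held 58.8% and 67.1% of its UMIs. There it was at 383 and 329 CPM, with a log2 ratio of 0.22 (-0.19 to 0.61), and over the other clusters it was -1.26 (-1.77 to -0.76). In clusters 1, 2 and 3 it was at 7.66, 10.4 and 38.3 CPM in Lipo-Clo, against 26.4, 12.3 and 74.4 in Lipo-PBS.

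**Figure D4:**
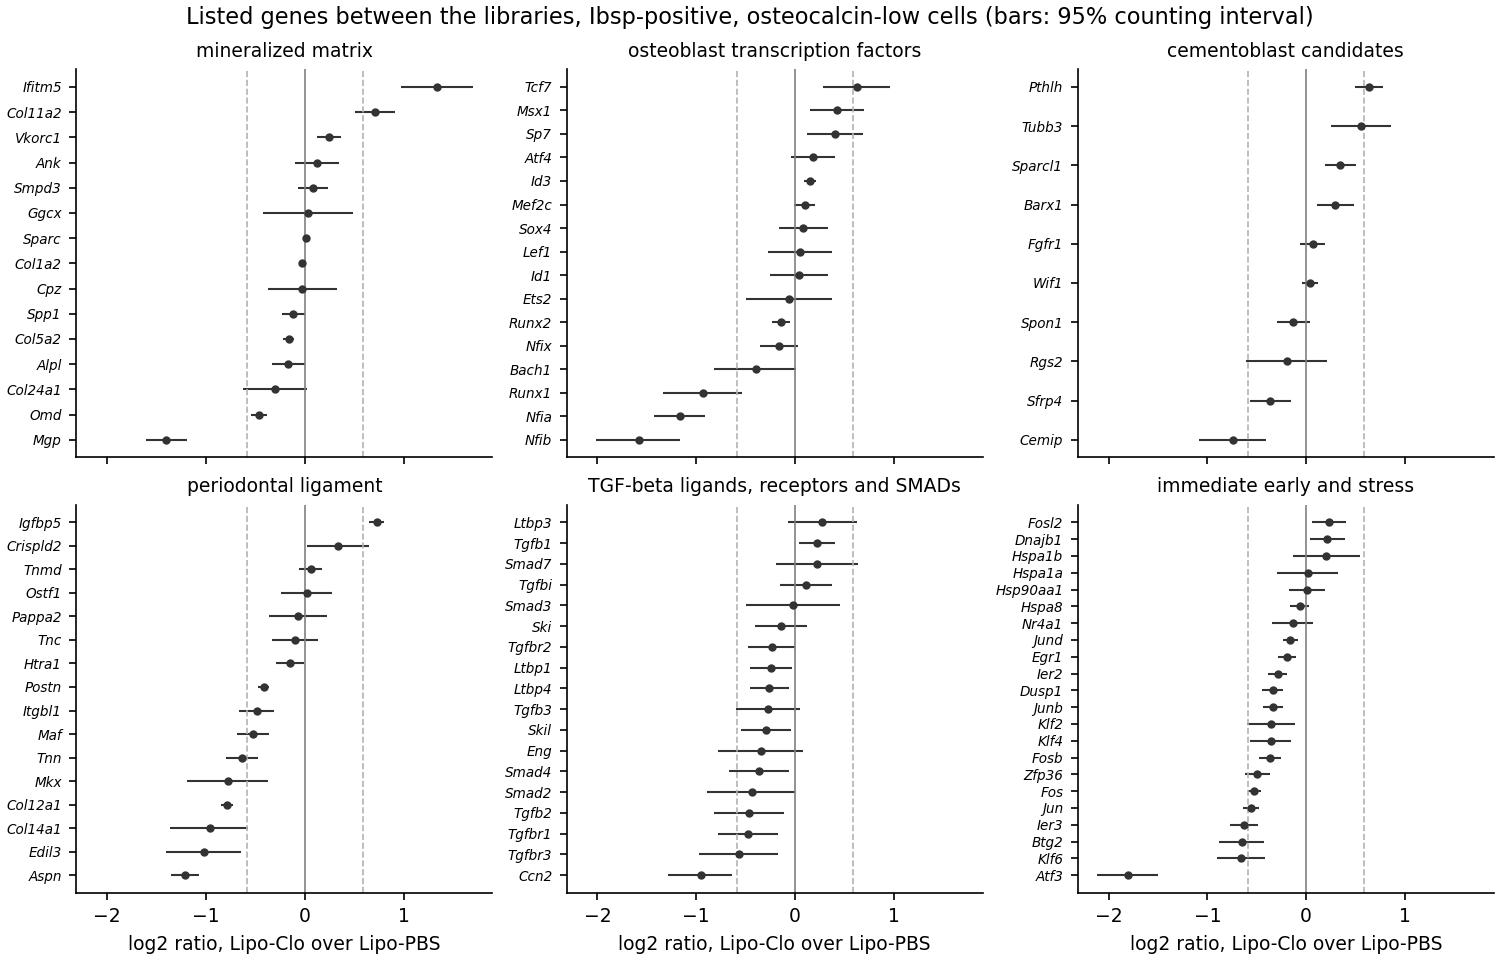
Log2 ratio of Lipo-Clo over Lipo-PBS for genes in use of 6 lists in the Ibsp-positive, osteocalcin-low cells. Points are ratios of summed CPM, bars are 95% counting intervals, and dashed lines mark 1.5-fold. Ifitm5 lay highest and Mgp lowest in the matrix list, and 12 of 16 periodontal ligament genes lay below 0.

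Few TGF-beta and integrin genes passed 1.5-fold, and most were slightly lower in Lipo-Clo. Of 19 genes for TGF-beta ligands, receptors, SMADs and target genes 2 were past 1.5-fold lower, beside 5.97% of all genes, and 15 were lower by any amount, beside 47.3% of all genes, with a median of -0.27. The target gene Ccn2 was among the 2, with a log2 ratio of -0.96. The receptor genes Tgfbr1 and Tgfbr2 were at 61.7 and 103 CPM in Lipo-Clo and 85.8 and 122 in Lipo-PBS, log2 ratios of -0.48 and -0.24. The ligand gene Tgfb1 was at 201 and 172, a log2 ratio of 0.22 (0.04 to 0.41). The list's median was -0.41 in osteocalcin-high cells and -0.32 in Ibsp-negative cells. Of 10 integrin genes 2 were past 1.5-fold lower, with a median of -0.33. Itga6 reached 10% of cells only in Lipo-PBS, and by the mean share 1 of 7 was lower, with a median of -0.25. Over the same 10 integrin genes the median was -0.28 in osteocalcin-high cells and 0.01 in Ibsp-negative cells. Itgb1, the common beta chain, was at 596 and 982, a log2 ratio of -0.72 (-0.81 to -0.63), and was -0.63 and -0.70 in the other 2 cell sets.

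BMP and Wnt genes had medians near that of all genes, 0.07 over 17 and 0.06 over 19. Counts past 1.5-fold here stand beside 2.72% of all genes higher and 5.97% lower. Twsg1, a BMP-binding protein gene, was -0.76 and the only BMP gene past 1.5-fold. Notum (0.85) and Tcf7 were the Wnt genes past 1.5-fold higher and Sfrp2 the one lower. Of 5 hedgehog genes none passed 1.5-fold, with a median of -0.14. Gli1, a hedgehog target that marks root mesenchymal stem cells, was at 6 UMIs in Lipo-Clo and 4 in Lipo-PBS, and no difference was detectable at this depth. Osteoclast coupling genes had a median of -0.16 over 6, with Pthlh past 1.5-fold higher and Cxcl12 (-0.74) and Efnb2 (-0.97) lower. Both of the latter reached 10% of cells only in Lipo-PBS, and by the mean share 1 of 5 was lower.

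Nuclear oxidative phosphorylation genes differed by small amounts. Of 73 in use 1 was past 1.5-fold higher (Atp5mc2, 0.75), beside 2.72% of all genes, and 71 were higher in Lipo-Clo by any amount, beside 52.7% of all genes, with a median of 0.28. It was 0.24 in osteocalcin-high cells and 0.32 in Ibsp-negative cells. Ribosomal protein genes summed to 146673 CPM in Lipo-Clo and 125183 in Lipo-PBS, and 83 of 88 in use were higher, with a median of 0.24. Of 22 immediate early and stress genes 4 were past 1.5-fold lower, beside 5.97% of all genes. By any amount 17 were lower, beside 47.3% of all genes, with a median of -0.34. Atf3, a stress-induced transcription factor gene, was at 45.5 and 159 CPM, with a log2 ratio of -1.80 (-2.12 to -1.50). The early response genes Fos and Jun had -0.52 and -0.56. The list's median was -0.29 in osteocalcin-high cells and 0.01 in Ibsp-negative cells.

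Of the collagen lists, collagen processing genes had a median of 0.11 over 25 with none past 1.5-fold, and a list of fibrillar, fibril-associated and type VI collagens 0.05 over 15 with 2 past 1.5-fold on each side, or 2 higher and 1 lower of 14 by the mean share. Without the 3 collagen VI genes the median was -0.02 over 12. Counts here too stand beside 2.72% of all genes past 1.5-fold higher and 5.97% lower. Kdelr2, an endoplasmic reticulum retrieval receptor gene, was at 1010 and 674 CPM, with a log2 ratio of 0.58. Of 4 odontoblast genes in use 2 were past 1.5-fold higher and 1 lower, or 1 and 1 of 3 by the mean share. Of 4 pulp and papilla genes 1 was lower (Smoc2, -0.86, in 10% of cells only in Lipo-PBS), and of 4 osteocyte genes none was.

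Cell cycle genes were mostly in under 10% of cells. All 17 with at least 50 UMIs had ratios above 0, beside 49.9% of all 8882 genes with that many. The 4 in use had a median of 0.41 with none past 1.5-fold. Of the 13 with at least 50 UMIs that were not in use, 8 were past 1.5-fold higher and none lower, with a median of 0.75, beside 7.41% higher of all 3442 such genes. Birc5, a mitotic survivin gene, had 178 and 77 UMIs, a log2 ratio of 1.41 (1.02 to 1.82), and Ube2c, a mitotic ubiquitin-conjugating enzyme gene, 261 and 130, a log2 ratio of 1.21 (0.90 to 1.52). Cdk1 was 0.93 and Cenpf 0.75, while Mki67, a proliferation marker, was at 48 and 47 UMIs, a log2 ratio of 0.23 (-0.38 to 0.85). The share of cells with Birc5 was 8.18% and 7.38%, and with Ube2c 8.52% and 8.89%. The 47 Lipo-Clo and 57 Lipo-PBS cells of cluster 5 held 137 of 178 and 21 of 77 Birc5 UMIs, and 207 of 261 and 33 of 130 Ube2c UMIs.

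Nes was at 51 and 46 UMIs, a log2 ratio of 0.35 (-0.25 to 0.96). Xist, which is expressed from the inactive X chromosome, had a log2 ratio of 0.07 and 4 Y-linked genes together -0.72. The study included mice of both sexes, but the sex of the mice behind each library is not given in the sources used here. A difference in sex between the libraries cannot be told apart from the treatment.

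**Figure D5:**
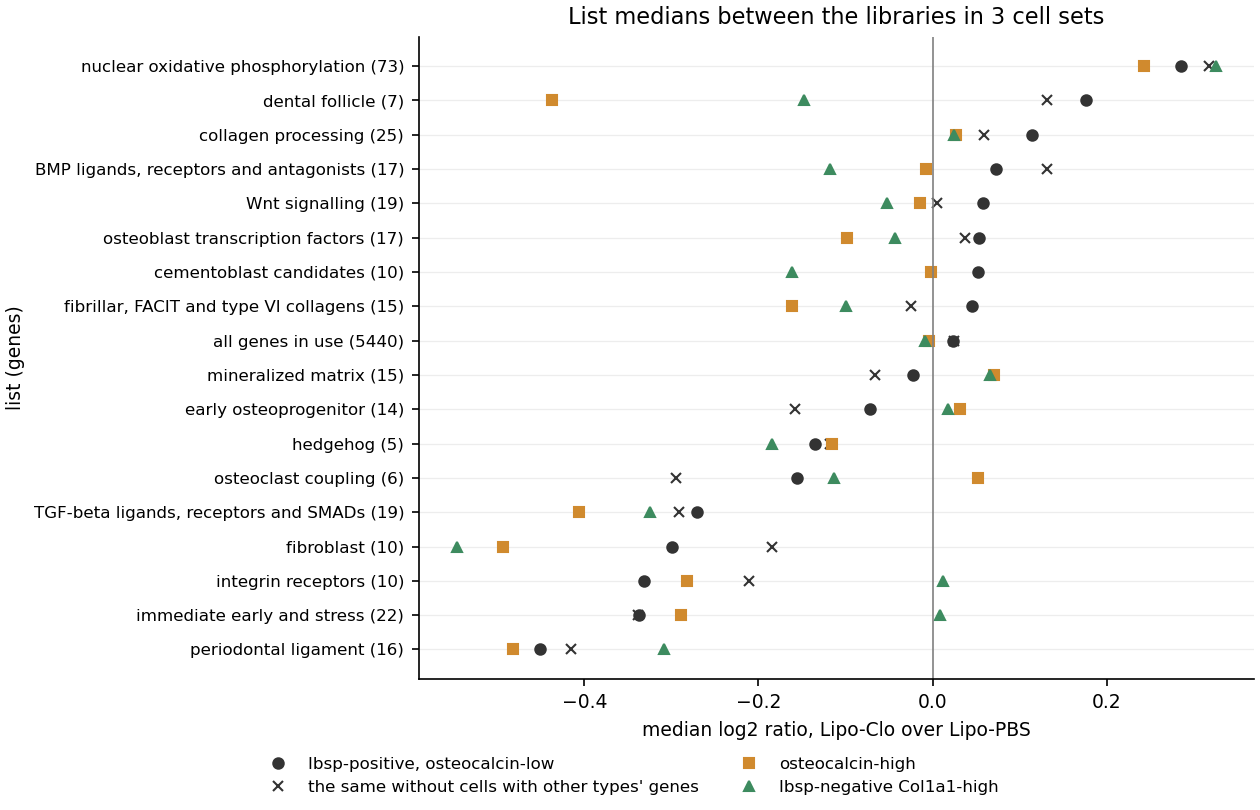
Median log2 ratio of Lipo-Clo over Lipo-PBS of each list over the same genes in the Ibsp-positive, osteocalcin-low cells (circles), in those without cells holding genes of other types (crosses), in osteocalcin-high cells (squares) and in Ibsp-negative cells (triangles). The numbers of genes stand in brackets. The periodontal ligament, fibroblast and TGF-beta lists lay below 0 and oxidative phosphorylation above 0 in every cell set drawn.

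Of the 10 named genes on each side 6 of the higher and 8 of the lower reached 10% of cells only in the library where they were higher. Among the other named genes Nid2, a basement membrane gene, had a log2 ratio of 1.55 and Col7a1 1.45 (1.21 to 1.69). Col7a1 was at 204 and 74.9 CPM, and was 1.55 within cluster 3 and -0.32 (-1.27 to 0.63) within cluster 1, where it had 22 and 20 UMIs. Snhg16, Sapcd1 and Gatm completed the higher side, at 1.20, 1.16 and 1.08. On the lower side Sfn (-2.17), Krt14 (-1.73) and Lgals7 (-1.64) are epithelial genes, and without the cells holding genes of other types they were -1.59, -0.45 and -0.09. Il1rl1, the interleukin 33 receptor gene, was at 20.9 and 92.7 CPM, with a log2 ratio of -2.15 (-2.62 to -1.71), and was -2.32 without those cells. Hpgd, Bnc2, Tent5c and Chchd10 were between -1.74 and -1.63.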

How the data were processed

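Single-cell RNA sequencing gave 2 libraries, 1 per condition, under the same batch label. The deposited values are UMI counts for 34285 genes in each cell, not normalized. The file headers name cellranger 8.0.0, while the submitters' processing notes name Cell Ranger 3.1.0, Seurat 3.1.1 and the builds GRCm39 and mm39. Which version made the counts was not settled, and the filters applied before deposit are not given in the sources used here. The Lipo-Clo library summed to 31053404 UMIs over 9362 cells and the Lipo-PBS library to 30537834 over 9653, and 30 barcodes were shared, 2 and 1 of them among the selected cells of each library.

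Cells with fewer than 200 genes (473 in Lipo-Clo and 748 in Lipo-PBS) or over 20% mitochondrial UMIs (3 and 11) were left out. Counts were summed over the cells of a set and divided by the set's total and multiplied by 1000000 (CPM). Ratios of summed counts have exact conditional intervals and shares have exact Clopper-Pearson intervals, both at 95%. A gene was in use when at least 10% of the cells of a set had it. With 1 library per condition genes were counted by size (1.5-fold between libraries, 2-fold in both libraries between cell sets), with no p-value. Doublets were scored with Scrublet in scanpy 1.11.5. Its automatic threshold called 0 and 1 cells, and top-scoring cells were taken instead, at 0.8% for every 1000 cells (632 and 633 cells, of which 57 and 61 were selected cells). They stayed in, except where stated. Selected cells were clustered with Leiden (leidenalg 0.10.2) on 1000 variable genes, 15 components and 15 neighbours at resolution 0.5. Scaling factors came from edgeR 4.0.16 and DESeq2 1.42.0. The ratio and its interval were tested on simulated data. Promoter windows are from RefSeq on GRCm38.p6.

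Named genes were those of the rule, the 10 most different in each direction with at least 100 UMIs (leaving out mitochondrial, globin, ribosomal, sex-linked and unnamed genes), the most abundant listed genes and those past 1.5-fold, and Gli1, Mki67, Prrx1, Mfap5, Sfrp2, Postn, Nes and Tgfb1. The cells, lists and tests were chosen with earlier results of these data known, and the alternatives that leave out cells or clusters of other types, or take or leave out 1 cluster, or take genes by their mean share of cells, were chosen after seeing the data. Values of some listed genes are not reported here, in the text or the plots, though the counts and medians of their lists include them.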

Additional observations from a re-analysis of the deposited data

Results flagged for a closer look

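Camp, an antimicrobial peptide gene of neutrophils, and Col5a3, a fibrillar collagen gene, differed between the libraries by at least 1.5-fold in opposite directions, with counting intervals clear of 0, in the Ibsp-positive, osteocalcin-low cells and in the osteocalcin-high cells. They were the only such genes among 302 named or listed genes in use, each compared in 2 other cell sets. Camp had a log2 ratio of Lipo-Clo over Lipo-PBS of 1.94 in the selected cells and -0.89 in osteocalcin-high cells. Col5a3 had 0.68 and -0.79, from 210 and 151 UMIs in the selected cells and 34 and 69 in the osteocalcin-high cells. With 1 library per condition neither difference was tested. For Camp the osteocalcin-high cells held 303 UMIs in Lipo-Clo and 660 in Lipo-PBS. In the selected cells 2664 of 2884 Camp UMIs in Lipo-Clo and 797 of 868 in Lipo-PBS lay in the 15 and 24 cells of cluster 6, and the log2 ratio was -0.0077 after thinning each cell to 3000 UMIs.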

How the results depend on the processing

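The log2 ratio of the share of cells was -0.18 and changed sign with Col1a1 at least 4% (0.11), among Ibsp-positive cells (0.14) and without clusters 4, 6 and 7 (0.19). Under the other alternatives it kept its direction, between -0.29 and -0.07. The 148 genes at least 1.5-fold higher and 325 lower became 282 and 517 with Col1a1 at least 4%, 794 and 1341 over all 11507 genes with at least 20 UMIs, 653 and 871 at a log2 limit of 0.36, and 14 and 81 at 2-fold. They became 498 and 682 in cluster 1 alone, 474 and 635 in cluster 2 alone and 761 and 908 in cluster 3 alone, where fewer cells carry the sums. At 1.5-fold in place of 2-fold the genes that separate the cells from osteocalcin-high cells were 186 higher and 185 lower, and from Ibsp-negative cells 165 and 191. Averaging over scaled cells gave 101 genes lower than in Ibsp-negative cells, and thinning to 3000 UMIs gave 50 lower than in osteocalcin-high and 40 lower than in Ibsp-negative cells. With genes taken by their mean share of cells, an alternative chosen after seeing the data, 51 genes were lower than in osteocalcin-high cells in place of 91. The median of the oxidative phosphorylation genes was 0.32 with TMM, 0.32 without cells holding genes of other types and 0.36 without clusters 4, 6 and 7, and that of collagen processing was -0.0061 in the last. Dmp1 turned to -0.73 with osteocalcin under 5 and to -0.14 with the rule on shares of UMIs, and Camp to -0.0077 after thinning. The causes were not tested. The 4991 Lipo-Clo and 4943 Lipo-PBS cells under 3000 UMIs did not enter the thinning. No paired analysis was possible because only 1 library stood for each condition, so no library could be left out either. Low-count genes such as Gli1 are limited by depth.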
